A study of Rattus norvegicus with 12 samples.

Results

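Noncoding transcripts named after ion channel and neurotransmitter receptor genes were examined in lumbosacral cord tissue from rat fetuses with anorectal malformations (ARM) and from normal fetuses. The transcripts were chosen by name, with earlier results of these data known. Every row of the long noncoding RNA (lncRNA) table whose name begins with one of 10 gene prefixes was taken. The channel prefixes were Kcn (potassium channels), Cacn (voltage-gated calcium channels) and Scn (voltage-gated sodium channels). The glutamate receptor prefixes were Gria (AMPA-type), Grik (kainate), Grin (NMDA) and Grm (metabotropic). The others were Gabr (GABA-A receptors), Glra (glycine receptors) and Chrn (nicotinic acetylcholine receptors). The 10 prefixes gave 62 of 22701 transcript rows, at 46 genes. Grm, Glra and Chrn had no row. All samples were Wistar rats at embryonic day 17. The ARM group (n = 3 libraries) came from fetuses whose malformation was induced with ethylenethiourea, and the normal group (n = 3 libraries) from fetuses without it. No labelled group had the exposure without the malformation, so these cannot be told apart. They do not say whether the 3 samples of a group came from separate litters or animals, so the p-values below reflect only how far these samples spread, which may be technical.

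Voltage-gated channels open when the membrane potential changes. Sodium channels start the action potential, calcium channels couple it to transmitter release and gene expression, and potassium channels end it and set the resting potential. AMPA, kainate and NMDA receptors are glutamate-gated cation channels that carry fast excitation in the spinal cord, and GABA-A receptors are GABA-gated chloride channels. Noncoding transcripts at such genes can lie in introns, run antisense or extend past the ends of the coding transcript, and their level says nothing by itself of the messenger RNA or of the channel.

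The rows carry names such as Gria2.d, in which the gene symbol is followed by a letter for the transcript model. All 46 genes matched a protein-coding gene of the RefSeq annotation (GRCr8), 42 by symbol and 4 by a synonym, and each row lay on the chromosome of its gene. Most genes (37) had 1 row, 5 had 2 rows, and 4 had 3 or more: Cacna1a with 5, Cacna1g with 4, and Cacnb1 and Scn3b with 3 each. Potassium channel genes gave 24 rows, calcium channel genes 19, sodium channel genes 9, Gria genes 3, Grik2 1, Grin-prefixed genes 4 and Gabrg1 2. Of the 62 rows, 24 (38.7%) are named as unspliced, against 41.7% of all rows in the table, and their median length was 550 bases against 670 bases. Among them, 10 overlap another row of the table and 34 lie within 10 kb of one. Since no source used here gives the strand setting of the counting, a read from an antisense or overlapping transcript cannot be told apart from a read of the row itself.

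Library totals ran from 3299241 to 3795224 counts in ARM cord and from 3017868 to 4549756 counts in normal cord. The 62 rows took 4555 to 5144 counts of these in ARM libraries and 4798 to 6251 in normal libraries, which was 0.1284% to 0.1381% and 0.1267% to 0.159% of the totals. Noncoding rows at neuronal marker genes, such as Elavl3.b and Map2.e, were present in every library, and the 10 such rows summed to 411 ± 52.8 CPM in ARM cord and 432 ± 21.0 CPM in normal cord (SD, n = 3 each). The 4 noncoding rows at the motor neuron genes Etv4, Foxp1 and Lhx3 summed to 47.2 ± 7.33 CPM in ARM cord and 55.4 ± 1.34 CPM in normal cord. The sums lay narrowly apart, at 38.8 to 52.3 CPM and 54.0 to 56.7 CPM. The rows did not move together: log2 fold changes, ARM minus normal, were 0.39 for Foxp1.c, -1.09 for Foxp1.d, -1.16 for Lhx3.a and -0.18 for Etv4.d. None had an adjusted p under 0.05 (edgeR). The beta-globin row Hbb.d, which marks blood, had 16, 12 and 675 counts in ARM replicates 1 to 3 and 12, 7 and 12 counts in normal replicates 1 to 3, so ARM replicate 3 stood apart in it. The part of cell composition in the values below was not tested, and in bulk tissue fewer cells of a type and less RNA per cell cannot be told apart. CPM here are counts scaled to the library's normalized total over the tested rows, and 1 count is worth 0.2212 to 0.3377 CPM.

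The comparison of ARM with normal cord asked whether noncoding transcripts at these genes differ in the malformed fetuses. No row passed the adjusted threshold of 0.05 (edgeR quasi-likelihood test over 13584 tested rows of the table; smallest adjusted p among these rows 0.9997), and 40 of the 62 rows had counts enough to be tested. Of all tested rows, 7 (0.0515%) passed. At an unadjusted p under 0.05, 0 of the 40 passed with edgeR and 1 with DESeq2 (Kcne3.b, unadjusted p = 0.0415), whereas 3.00% of all tested rows passed with edgeR. The ARM and normal libraries did not overlap in 2 of the 40 rows, against 7.78% of all tested rows.

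The fitted log2 fold changes, ARM minus normal, were small for most rows. Their median was -0.02, with 16 above 0 and 24 below. Over all tested rows the median was 0.00, with 6883 above 0 and 6701 below. Of the 40 rows, 36 (90%) lay within 0.5 of 0, against 88.9% of all tested rows. Every one of the 40 95% intervals held 0. For 32 rows the interval lay within a change of 1 on the log2 scale in either direction, so a larger difference was outside it. For the other 8 the interval reached 1 or -1.

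Summed over all 62 rows, the level was 1379.7, 1268 and 1428 CPM in ARM replicates 1 to 3, and 1620.1, 1287 and 1383 CPM in normal replicates 1 to 3. The means were 1358 ± 81.9 CPM in ARM cord and 1429.8 ± 172 CPM in normal cord (SD, n = 3 each), and the groups overlapped. In normal replicate 1, the row Scn3b.c alone held 176.6 CPM. By family, the median log2 fold change was -0.16 for 12 tested potassium channel rows (2 above 0 and 10 below), 0.01 for 15 calcium channel rows (8 above, 7 below) and 0.05 for 7 sodium channel rows (4 above, 3 below). It was -0.01 for 3 Gria rows, 0.22 for the Grik2 row and -0.38 for 2 Grin-prefixed rows. The Gabrg1 rows were too low to test.

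**Figure D1:**
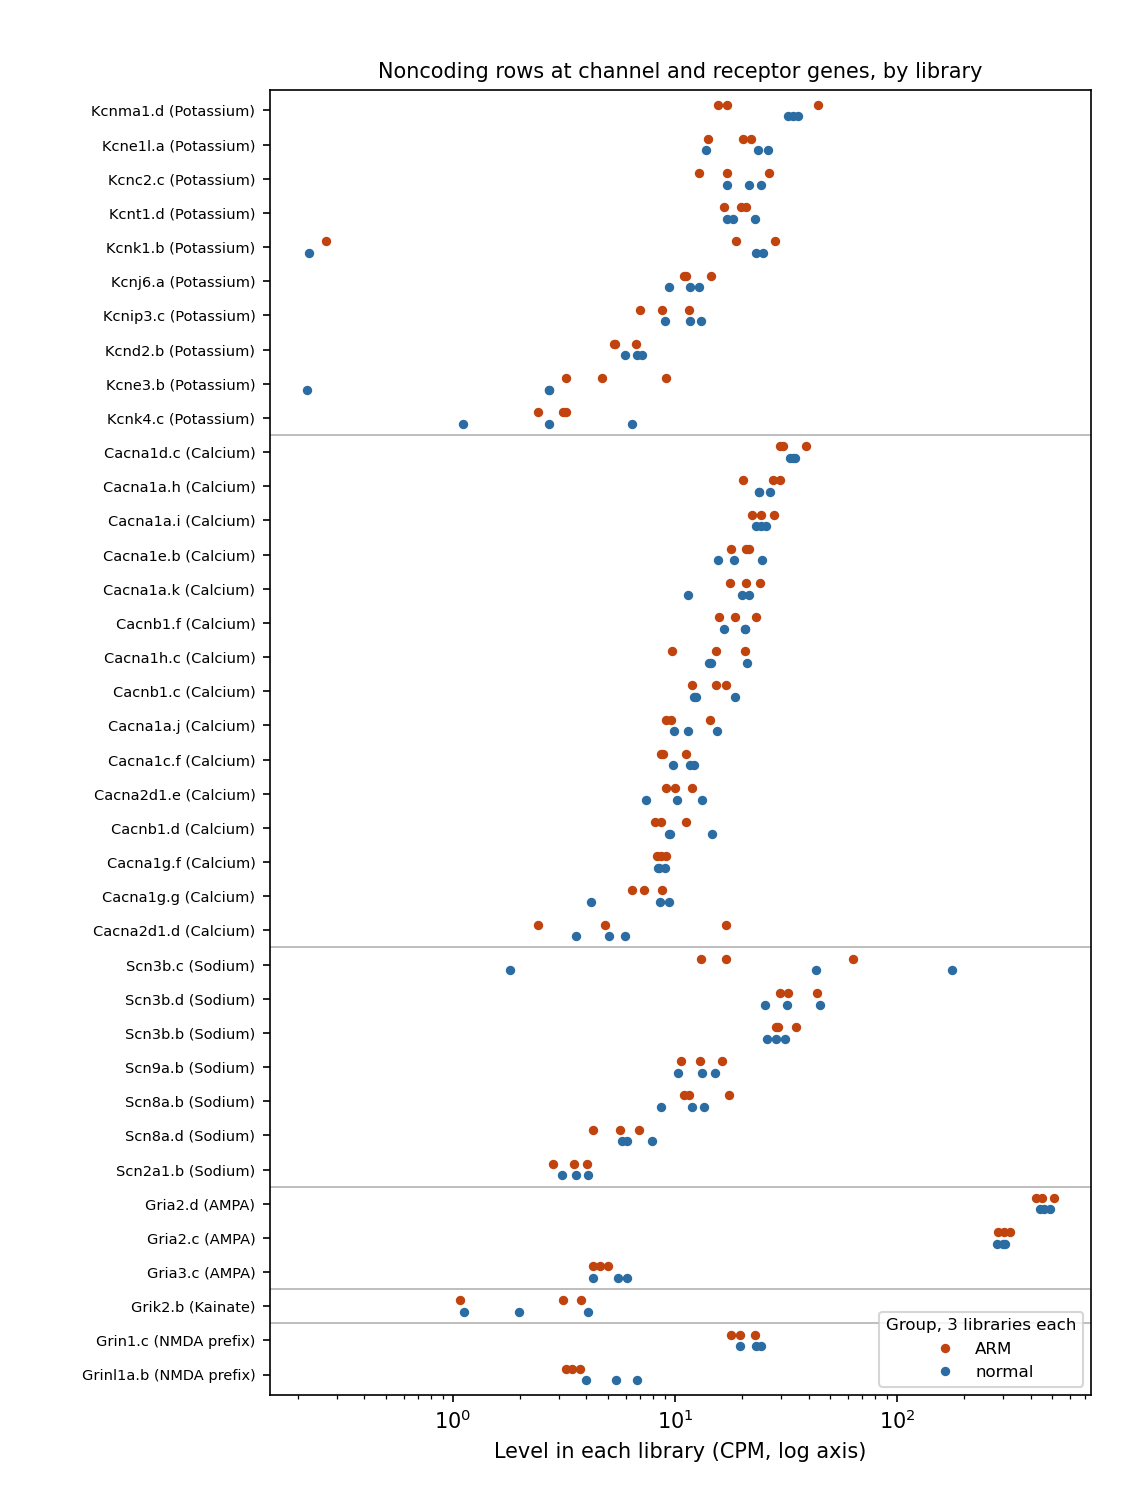
Level of 38 of the 40 tested rows in every library (CPM on a log axis), ARM libraries above normal libraries within each row and rows ordered by mean level within a family. The Gria2 rows stand above all others at 281.7 to 509.6 CPM, and the points of the 2 groups overlap in all rows drawn but Kcne3.b and Grinl1a.b.

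The AMPA receptor gene Gria2 held the rows with the highest levels of the 40 tested, in CPM and per kilobase. Gria2 encodes the AMPA receptor subunit whose edited form keeps calcium out of the receptor's pore. Its row Gria2.d (NONRATT016492.2, chromosome 2, 179587442 to 179589810 in the table's coordinates, spliced, 1977 bases) had 424, 450 and 509.6 CPM in ARM replicates 1 to 3, and 487.9, 440.7 and 460.8 CPM in normal replicates 1 to 3. The groups overlapped, with ARM replicate 3 the highest library and ARM replicate 1 the lowest. Its log2 fold change was -0.01 (SE 0.10, 95% interval -0.25 to 0.24).

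The neighbouring Gria2.c (NONRATT016493.2, chromosome 2, 179589864 to 179591079, unspliced, 1216 bases) starts 54 bases after the end of Gria2.d. It had 303.4, 286 and 324.1 CPM in ARM replicates 1 to 3, and 306.6, 281.7 and 301.3 CPM in normal replicates 1 to 3. The groups overlapped here too, and the log2 fold change was 0.04 (SE 0.10, 95% interval -0.19 to 0.26). These are the narrowest intervals among the 40 rows. Both rows together took 52.7%, 58.0% and 58.4% of the summed CPM of the 62 rows in ARM replicates 1 to 3, and 49.0%, 56.1% and 55.1% in normal replicates 1 to 3. They ranked 360 (Gria2.d) and 629 (Gria2.c) by mean CPM among all tested rows. Without Gria2 the other 60 rows summed to 593 ± 60.2 CPM in ARM cord and 670.1 ± 138 CPM in normal cord, with overlapping groups. Of these sums, the uneven row Scn3b.c held 31.1 ± 27.9 CPM in ARM cord and 73.9 ± 91.3 CPM in normal cord.

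Per kilobase of transcript, the scale on which rows can be set against each other, Gria2.c stood at 247 ± 12.5 CPM per kb and Gria2.d at 234 ± 16.0 CPM per kb over the 6 libraries (SD), with Gria2.c the higher in all 6. The next rows were far below. Scn3b.b had 64.3 ± 6.70 CPM per kb, Cacna1e.b 55.0 ± 8.77, Scn3b.d 52.6 ± 12.1 and Cacna1a.h 50.7 ± 6.77 CPM per kb, and neighbours in this order overlapped within 1 SD. The median of the 40 rows was 22.3 CPM per kb, against 19.3 CPM per kb for all tested rows.

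Gria3, which encodes another AMPA receptor subunit, had 1 row, Gria3.c, with 4.63 ± 0.364 CPM in ARM cord and 5.30 ± 0.922 CPM in normal cord. The kainate receptor row Grik2.b (chromosome 20, 54269048 to 54269463) rested on few reads, 4, 14 and 10 counts in ARM replicates 1 to 3 and 12, 5 and 9 counts in normal replicates 1 to 3. Its libraries spread over the same range in both groups, and the log2 fold change of 0.22 had an SE of 0.60.

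Of the Grin-prefixed rows, Grin1.c lies at the gene of the obligatory NMDA receptor subunit (chromosome 3, 2508776 to 2509428). It had 18.0, 19.7 and 22.9 CPM in ARM replicates 1 to 3 and 23.3, 24.3 and 19.7 CPM in normal replicates 1 to 3, a log2 fold change of -0.15 (SE 0.16) with overlapping groups. Grin3b.b, at the gene of a glycine-binding NMDA receptor subunit, had 1 or 2 counts in every library. Grina and Grinl1a carry the prefix without encoding NMDA receptor subunits: the Grina protein belongs to a family of membrane proteins that includes Bax inhibitor-1, and Grinl1a is a synonym of Polr2m, which encodes a protein associated with RNA polymerase II. The row Grinl1a.b (chromosome 8, 77990509 to 77992119) was 1 of the 2 rows whose groups did not overlap, with 14, 12 and 11 counts in ARM replicates 1 to 3 and 20, 24 and 18 counts in normal replicates 1 to 3. The means were 3.48 ± 0.263 CPM in ARM cord and 5.38 ± 1.39 CPM in normal cord. Every ARM library was below every normal one, but the log2 fold change of -0.60 (SE 0.28) had an unadjusted p of 0.0669 and an adjusted p of 0.9997 (edgeR).

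None of the 15 tested calcium channel rows spanned 10-fold between libraries. Cacna1a encodes the pore of the P/Q-type channel, which triggers transmitter release. Its 4 tested rows lie along 56.3 kb of chromosome 19, and their log2 fold changes ran from -0.15 for Cacna1a.j to 0.23 for Cacna1a.k. The one with the highest CPM, Cacna1a.h (25744422 to 25746814), had 27.6, 20.2 and 29.8 CPM in ARM replicates 1 to 3 and 23.97, 23.87 and 26.8 CPM in normal replicates 1 to 3. Its log2 fold change was 0.05 (SE 0.18), and the ARM libraries lay on both sides of the normal ones. Cacna1a.k, an unspliced row, had 20.9 ± 3.22 CPM in ARM cord and 17.7 ± 5.48 CPM in normal cord, where normal replicate 1 was the lowest library at 11.5 CPM (log2 fold change 0.23, SE 0.26). The 5 Cacna1a rows summed to 83.8 ± 12.6 CPM in ARM cord and 80.5 ± 4.87 CPM in normal cord.

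L-type channels, which link activity to gene expression, were represented among the tested rows by Cacna1c and Cacna1d. Cacna1d.c (chromosome 16, 6152577 to 6161287) had 33.0 ± 5.08 CPM in ARM cord and 33.9 ± 0.801 CPM in normal cord (log2 fold change -0.04, SE 0.15). Cacna1c.f had 8.85, 8.62 and 11.3 CPM in ARM replicates 1 to 3 and 9.79, 12.2 and 11.7 CPM in normal replicates 1 to 3. ARM replicates 1 and 2 were below all normal libraries and ARM replicate 3 was not, for a log2 fold change of -0.24 (SE 0.20, unadjusted p = 0.276, edgeR). Cacna1e.b, at the gene of the R-type channel, and Cacna1h.c, at that of a low-voltage-activated T-type channel, had log2 fold changes of 0.05 and -0.13.

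Cacna1g, which encodes another T-type channel, had 4 rows on chromosome 10 that differed in how even they were. The tested rows Cacna1g.f and Cacna1g.g overlap each other and were level, with log2 fold changes of 0.01 and 0.03. Cacna1g.e had 2 to 5 counts in every library. The row Cacna1g.h (82146213 to 82147097, 419 bases) had 1, 1 and 2 counts in ARM replicates 1 to 3, and 67, 1 and 79 counts in normal replicates 1 to 3. It was high in normal replicates 1 and 3 and near 0 in the other 4 libraries, so the groups overlapped, and it did not enter the test because only 2 libraries passed the count minimum. It was picked out here after its values were seen. With the filter on low counts removed, its log2 fold change was -5.02 with an unadjusted p of 0.0133 and an adjusted p of 0.9998 (edgeR). Without normal replicate 2, the low library of the normal group, it was -5.60 with an adjusted p of 0.0182 (edgeR). That setting takes away the library that made the groups overlap and lets the row through the filter, so the value is a description and supports no difference. Summed over its 4 rows, Cacna1g had 17.8 ± 2.13 CPM in ARM cord and 30.3 ± 11.8 CPM in normal cord, and the groups overlapped.

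Auxiliary calcium channel subunits set trafficking and gating of the pore. Cacnb1, which encodes a beta subunit, had 3 tested rows within 6.38 kb of chromosome 10, with log2 fold changes from -0.26 (Cacnb1.d) to 0.03 (Cacnb1.c), and their sum was 43.3 ± 0.896 CPM in ARM cord and 44.9 ± 2.49 CPM in normal cord, with overlapping groups. Cacna2d1, the gene of the alpha2delta subunit that gabapentin binds, had 2 rows. Cacna2d1.e was level (log2 fold change -0.01), while Cacna2d1.d (chromosome 4, 15731089 to 15733261) had 9, 18 and 54 counts in ARM replicates 1 to 3 and 15, 16 and 27 counts in normal replicates 1 to 3. ARM replicate 3 was the highest library and ARM replicate 1 the lowest. The log2 fold change of 0.70 (SE 0.68) became -0.42 without ARM replicate 3, the library with 675 counts of Hbb.d. A link between Cacna2d1.d and Hbb.d was not tested.

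**Figure D2:**
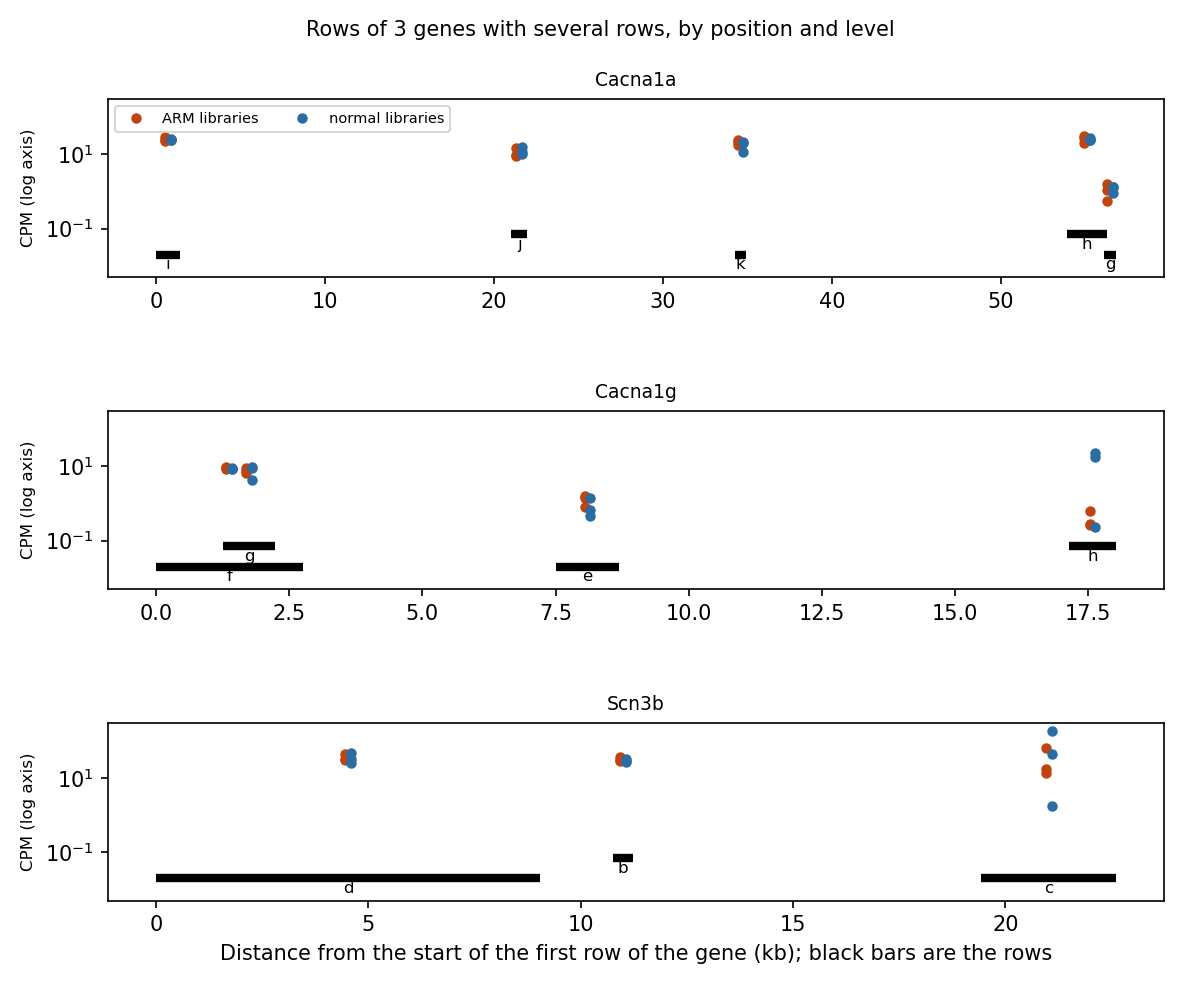
Position and level of the rows of Cacna1a, Cacna1g and Scn3b, with distance in kb from the start of the first row on the horizontal axis, each row as a black bar, and CPM in each library on a log axis (ARM points left of normal points). Rows of 1 gene differ in how even they are: Cacna1g.h and Scn3b.c scatter widely between libraries, while the other rows of those genes do not.

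Sodium channel rows were dominated by Scn3b, which encodes a beta subunit that modulates the pore. Its row Scn3b.c (NONRATT028621.2, chromosome 8, 44155846 to 44159016, spliced, 2861 bases) had 236, 63 and 42 counts in ARM replicates 1 to 3 and 523, 8 and 196 counts in normal replicates 1 to 3. Both the highest and the lowest library were normal, with all ARM libraries between them, and the libraries spanned 92.35-fold in CPM after 0.5 was added to each count. The log2 fold change of -1.23 (SE 1.28, 95% interval -4.29 to 1.83, adjusted p = 0.9997, edgeR) became 0.46 without normal replicate 1. The other rows of Scn3b did not share this spread. Scn3b.b had 28.4, 29.1 and 35.1 CPM in ARM replicates 1 to 3 and 31.4, 28.6 and 26.1 CPM in normal replicates 1 to 3 (log2 fold change 0.11, SE 0.15), and Scn3b.d had 35.2 ± 7.49 CPM in ARM cord and 34.2 ± 10.1 CPM in normal cord (log2 fold change 0.05, SE 0.25). The row gleery.a, which begins 1.62 kb beyond Scn3b.c and has no gene symbol, was steady as well, with 849, 895 and 627 counts in ARM replicates 1 to 3 and 610, 968 and 1034 counts in normal replicates 1 to 3.

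Summed over 3 rows, Scn3b had 97.2 ± 33.2 CPM in ARM cord and 136.8 ± 103 CPM in normal cord, a spread that comes from Scn3b.c. Among genes of pore subunits, Scn8a, which carries much of the sodium current of motor and other central neurons, had 2 rows with fold changes of opposite sign, each within its error: Scn8a.b had a log2 fold change of 0.24 (SE 0.27) and Scn8a.d one of -0.24 (SE 0.27). Scn9a.b, at the gene of a channel best known from sensory and sympathetic neurons, had 13.3 ± 2.87 CPM in ARM cord and 12.9 ± 2.43 CPM in normal cord. Scn2a1.b, at Scn2a, had 3.45 ± 0.603 CPM in ARM cord and 3.58 ± 0.478 CPM in normal cord. The row at Scn10a, a channel of nociceptive sensory neurons, was too low to test, with 2, 2 and 6 counts in ARM replicates 1 to 3 and 24, 4 and 4 counts in normal replicates 1 to 3, so 1 normal library held most of its reads.

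Potassium channels form the most diverse of these families, and 12 of their 24 rows were tested. Of these 12 rows, 10 had a log2 fold change below 0, against 6701 of all 13584 tested rows. None passed at an unadjusted p under 0.05 (edgeR). Some kept their sign when each library was left out, such as Kcnip3.c (-0.52 to -0.15). Others did not, such as Kcnc2.c (0.06 without ARM replicate 3). The summed level was 180.3 ± 30.9 CPM in ARM cord and 200.6 ± 21.6 CPM in normal cord, and the groups overlapped.

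Among voltage-gated pores, Kcnc2 encodes a channel that supports fast firing, and Kcnd2 one that carries an A-type current. Kcnc2.c had 18.9 ± 6.998 CPM in ARM cord and 21.0 ± 3.64 CPM in normal cord (log2 fold change -0.15, SE 0.29). Kcnd2.b had 5.81 ± 0.779 CPM in ARM cord and 6.61 ± 0.574 CPM in normal cord (log2 fold change -0.18, SE 0.25). The groups overlapped in both rows.

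Kcnma1 encodes the large-conductance channel opened by calcium and voltage. Its unspliced row Kcnma1.d (chromosome 15, 1047323 to 1048267, 945 bases) had 164, 58 and 55 counts in ARM replicates 1 to 3 and 101, 143 and 162 counts in normal replicates 1 to 3, or 44.0, 15.6 and 17.2 CPM against 34.1, 32.2 and 35.8 CPM. ARM replicate 1 was above every normal library, and the other ARM libraries were below all of them. The normal libraries stayed within 34.0 ± 1.82 CPM, against 25.6 ± 15.9 CPM in ARM cord. With all libraries the log2 fold change was -0.41 (SE 0.39, adjusted p = 0.9997, edgeR), and without ARM replicate 1 it was -1.06 (SE 0.15, unadjusted p = 5.86e-04, adjusted p = 0.285, edgeR). That setting takes away the library that made the groups overlap, so the value is a description and supports no difference. The nearest row, swyja.a, 6.20 kb away and without a gene symbol, had 339, 350 and 269 counts in ARM replicates 1 to 3 and 246, 367 and 415 counts in normal replicates 1 to 3, so it did not share the split among ARM libraries. Kcnt1.d, at the gene of a sodium-activated channel, had 19.2 ± 2.28 CPM in ARM cord and 19.5 ± 3.05 CPM in normal cord.

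Tandem-pore channels carry the background potassium current. Kcnk1.b (NONRATT014419.2, chromosome 19, 58861957 to 58862924, spliced, 968 bases) had 105, 1 and 60 counts in ARM replicates 1 to 3 and 74, 1 and 105 counts in normal replicates 1 to 3. It was present in 4 libraries and held a single read in 1 library of each group, so it did not follow the groups (log2 fold change -0.02, SE 1.33, 95% interval -3.20 to 3.16). The nearest other row lay 82.5 kb away. Kcnk1.b and Cacna1g.h had at most 3 counts in 1 library and at least 50 in another, which held for 2 of the 62 rows (3.23%) and for 405 of all 22701 rows (1.78%). Kcnk12.a, too low to test, had 3, 1 and 7 counts in ARM replicates 1 to 3 and 20, 8 and 2 counts in normal replicates 1 to 3. Kcnj6.a, at the gene of an inward rectifier opened by G proteins, was 1 of the 2 potassium channel rows with a log2 fold change above 0 (0.12, SE 0.21).

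Auxiliary potassium channel subunits held the other such row. Kcne3 encodes a single-pass membrane protein that modifies several voltage-gated channels. Kcne3.b (NONRATT001000.2, chromosome 1, 165189984 to 165196604, spliced, 956 bases) had 12, 34 and 15 counts in ARM replicates 1 to 3 and 8, 12 and 1 counts in normal replicates 1 to 3. In CPM that is 3.22, 9.16 and 4.70 in ARM libraries and 2.70, 2.70 and 0.221 in normal libraries, so every ARM library was above every normal one. The log2 fold change of 1.65 (SE 0.72, 95% interval -0.06 to 3.36) had the smallest unadjusted p of the 40 rows, 0.0565, and an adjusted p of 0.9997 (edgeR). It was 1.11 without ARM replicate 2, the highest library, 1.07 without normal replicate 3, the lowest, and between 1.07 and 2.12 over the 6 settings that left out 1 library. Kcne3.b lies within a longer row, NONRATT031560.1 (165181861 to 165237452), whose counts were 126, 115 and 86 in ARM replicates 1 to 3 and 100, 124 and 159 in normal replicates 1 to 3. That longer row had a log2 fold change of -0.08, and reads in the shared stretch cannot be assigned to either with the information given.

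Kcnip3 encodes a calcium-binding partner of A-type channels. Its row Kcnip3.c (chromosome 3, 120023062 to 120026893) had 6.97, 11.6 and 8.78 CPM in ARM replicates 1 to 3 and 13.2, 11.7 and 9.07 CPM in normal replicates 1 to 3, with overlapping groups (log2 fold change -0.30, SE 0.26, unadjusted p = 0.281, edgeR). Kcne1l.a, at Kcne5, had 18.8 ± 4.14 CPM in ARM cord and 21.3 ± 6.58 CPM in normal cord. Kcnmb1.b, at the gene of a smooth muscle beta subunit of the Kcnma1 channel, had 1, 0 and 2 counts in ARM replicates 1 to 3 and 4, 3 and 5 counts in normal replicates 1 to 3. Its groups did not overlap, but it was below the minimum for testing.

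**Figure D3:**
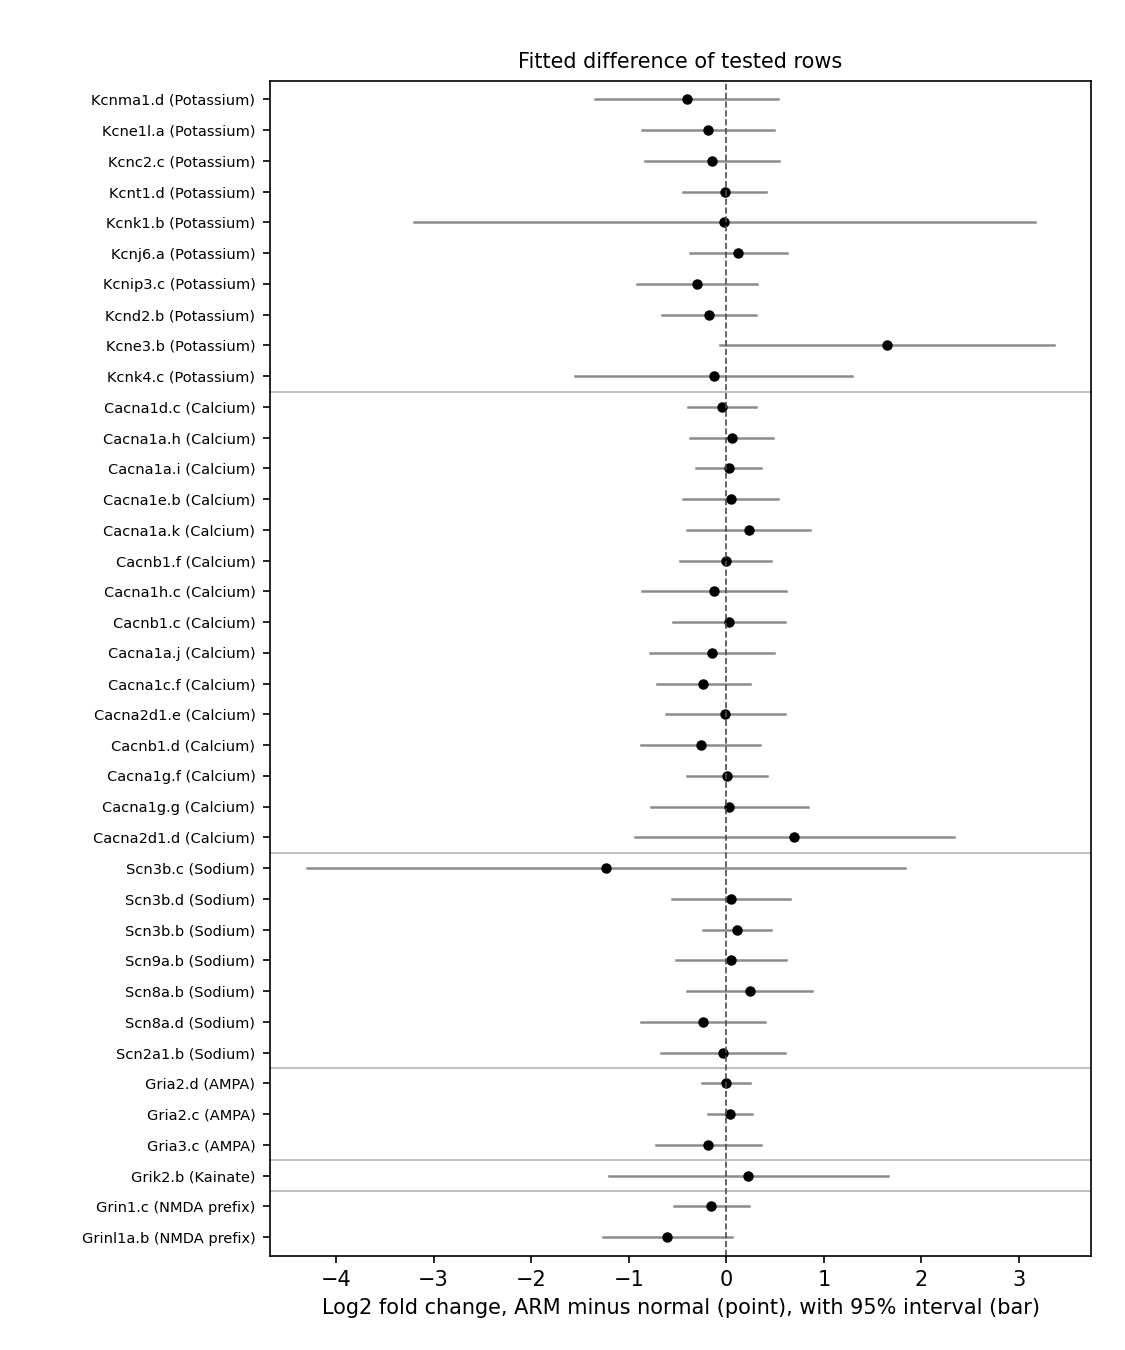
Fitted log2 fold change of the same 38 tested rows, ARM minus normal (points), with its 95% interval from the edgeR fit (bars), in the same order as the plot of levels. All 38 intervals cross the dashed line at 0. The widest belong to Kcnk1.b and Scn3b.c, and the narrowest to the Gria2 rows.

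The spread between libraries was compared over the tested rows. The median ratio of the highest to the lowest library was 1.73 for the 40 tested rows and 1.69 for all tested rows, computed after adding 0.5 to each count. A ratio of at least 10 was seen for 3 of the 40 (7.5%), namely Scn3b.c, Kcnk1.b and Kcne3.b, and for 630 of 13584 (4.64%). All 3 are spliced rows, as are 25 of the 40 tested rows. The extreme libraries of these 3 rows differed. In CPM the lowest was normal replicate 2 for Scn3b.c and Kcnk1.b and normal replicate 3 for Kcne3.b. Kcnk1.b held a single read in ARM replicate 2 also, so its lowest libraries were tied in counts. The highest in CPM was normal replicate 1 for Scn3b.c, ARM replicate 1 for Kcnk1.b and ARM replicate 2 for Kcne3.b.

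**Figure D4:**
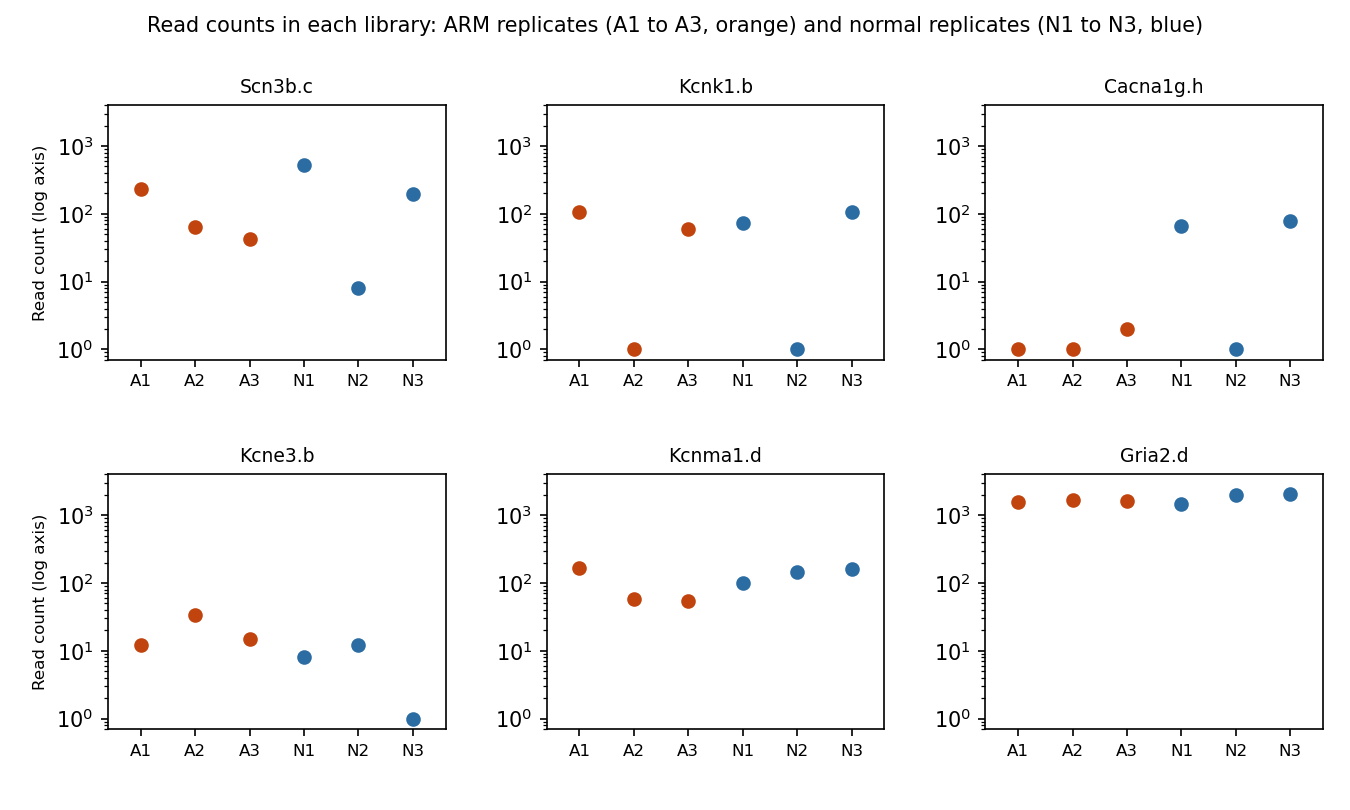
Read counts (log axis) of 5 uneven rows and of Gria2.d in each library, ARM replicates (A1 to A3) left of normal replicates (N1 to N3). Kcnk1.b had a single read in 1 ARM and 1 normal library, Cacna1g.h was high only in normal replicates 1 and 3, and Gria2.d kept between 1445 and 2083 counts.

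Of the 22 rows not tested, 15 had at most 6 counts in every library and 1, Cacna1g.h, had 50 or more in some library. The highest count among the others was 24. The untested rows include the 2 rows at Gabrg1, which encodes a gamma subunit of the GABA-A receptor and was the only inhibitory receptor gene among the 46. Gabrg1.c had 9, 7 and 4 counts in ARM replicates 1 to 3 and 6, 9 and 8 counts in normal replicates 1 to 3, and Gabrg1.b had 2 to 6 counts in every library. Kcna6.a had exactly 2 counts and Kcnh3.b exactly 1 count in each of the 6 libraries, a pattern shared by 557 rows of the table.

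Genes outside the 10 prefixes were examined the same way. Among 45 rows at other channel and receptor prefixes, such as Trpc, Hcn and Gabbr, 22 were tested and 0 passed either the adjusted threshold or an unadjusted p under 0.05 (edgeR), with 13 log2 fold changes above 0, 9 below and a median of 0.03. Among the 45, 9 rows belong to other genes that only share the letters, such as Tmem161b, and without them the median was -0.01 over 16 tested rows. Of 37 rows at genes of synaptic and auxiliary partners, 31 were tested, and 0 passed the adjusted threshold (edgeR), with 1 at an unadjusted p under 0.05, 14 above 0, 17 below and a median of -0.03. Ank2.c, at the gene of an ankyrin that anchors membrane proteins, was the one with the highest CPM, with 635 ± 53.4 CPM in ARM cord and 621 ± 22.8 CPM in normal cord. Of 9 rows at genes of transmitter synthesis and transport, 6 were tested and 0 passed either threshold (edgeR), with a median of -0.07.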

How the data were processed

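The 6 lncRNA libraries (3 ARM, 3 normal) were used. Groups and replicate numbers came from the sample titles. The authors deposited a table of whole-number read counts per transcript and, per the file headers, FPKM values, which entered no test. Transcript length in bases was used as deposited. Per the submitters' processing notes, the tools were TopHat2 2.0.9, CASAVA 1.8, Cuffdiff and Cufflinks 2.1.1, and the build named is mm10, a mouse genome. Rows on chromosome 20, which the mouse lacks, show that the table's coordinates are not those of mm10, and no source used here gives their build, the counting tool or the strand setting. The miRNA libraries were not used here.

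The deposited counts of all rows were fitted without covariates by the quasi-likelihood test of edgeR 4.0.16 (R 4.3.3), after TMM scaling and filterByExpr with a minimum count of 10 and total of 15. Benjamini-Hochberg adjustment covered the 13584 tested rows. The standard error came from the F statistic. For 4 rows that varied less than counting error (Cacna1g.f, Gria3.c, Kcnd2.b and Scn2a1.b) edgeR raised the p to that of a Poisson fit, and the error is that of a Poisson model at the fitted counts. A library with 0 counts allows up to 3 counts, or 0.6636 to 1.013 CPM, which covers counting error only.

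Named rows were those past the adjusted threshold, the 5 with the smallest unadjusted p in each direction, the 2 with the highest mean CPM per family, and rows of genes with at least 3 tested rows. Others were named after their values were seen. A few rows, 2 of the 40 tested among them, are not reported by name here. The members and lists were chosen with earlier results of these data known. The code was tested on simulated data. Pairs of libraries differed far beyond counting noise (a chi-square of 12.4 or more per degree of freedom), so none was counted as 1 sample. The alternatives tried were DESeq2 1.42.0, RLE scaling, rows summed by gene name, a block for the replicate number, no low-count filter, and the omission of each library in turn.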

Additional observations from a re-analysis of the deposited data

How the results depend on the processing

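No channel or receptor row passed the adjusted threshold with RLE size factors, DESeq2, no filter on low counts, the replicate block or rows summed by gene name. Leaving out each library gave 0 to 1 such rows, the 1 being Cacna1g.h without normal replicate 2, a setting that removes its low normal library. The count at an unadjusted p under 0.05 was 0 with RLE and with the block, 1 with DESeq2 (Kcne3.b), 1 with no filter (Cacna1g.h), 2 with rows summed (Cacna1g and Kcne3), and 0 to 3 with each library left out. The share of all tested rows at that p was taken only for the main edgeR fit, where it was 3.00%. The counts under the alternatives thus have no background beside them, so neither an excess nor its absence can be read from them. Over all rows the adjusted calls numbered 18 with DESeq2, 2 with the replicate block and 10 to 18 with each library left out, against 7. Over the tested rows, deviations from the group mean had correlations of -0.000468, 0.0291 and -0.0599 between same-numbered samples. These low values show no pairing by replicate number, but they cannot exclude shared litters or batches. The median log2 fold change of the tested rows was -0.12 with rows summed and -0.11 to 0.00 with each library left out. The Scn median ran from -0.13 (without ARM replicate 1) to 0.17 with each library left out. The Grin median was -0.19 with no filter and -0.51 to -0.14 with each library left out. The cause of these shifts was not tested. Scn3b summed over its rows gave -0.49, against 0.11 for Scn3b.b and 0.05 for Scn3b.d alone, since Scn3b.c enters the sum. Across the alternatives that kept single rows, 16 of the 40 tested rows kept the sign of their log2 fold change and 24 did not. Depth limits the untested rows, where 1 count is worth 0.2212 to 0.3377 CPM.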
